A study of Mus musculus with 48 samples.

Results

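Small RNA was counted in trigeminal ganglia (TG), which hold the neurons that sense touch and pain in the face, of mice given lipopolysaccharide (LPS), and the libraries taken at 24 h were set against those taken at 4 h. The libraries were chosen by their labels, as every TG library with LPS treatment at 4 h or 24 h, which gave 8 of the 48 libraries of the series, 4 at each time. All mice were Balb/c, 2.5 months old, with no engineered allele named in the labels, and received an intraperitoneal injection of 0.2 mL saline that carried LPS of E. coli at 2.5 mg/kg or nothing else. Each group of 4 libraries held 2 female and 2 male mice, each library came from both TG of a different mouse, and the sequenced samples were 2 of the 4 of each sex, time and treatment in a cohort of 48 mice. In 1 of the libraries at 24 h (female, replicate 2) the title spells the treatment PS, while its treatment label reads LPS. Set beside these 8 are the 8 TG libraries of saline mice at the same times and the 8 LPS libraries of a ganglion of the sympathetic system, the superior cervical one (SCG). The 4 LPS and 4 saline libraries of TG at 7 d enter the fit, where they help to estimate the spread, and 3 LPS means at 7 d are given. Replicates 1 and 2 are female and 3 and 4 male in every group, and the numbers link no animals between groups.

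MicroRNAs (miRNAs) are short RNAs that bind messenger RNAs through their seed, the bases near the 5′ end, and lower the output of those messengers. LPS acts through the receptor TLR4 and the transcription factor NF-kB, whose activation in immune, vascular and glial cells brings up miR-155, miR-146a and miR-21, the first promoting and the latter pair restraining inflammatory signalling. A sensory ganglion holds neurons, which are rich in the miR-183 cluster, as well as satellite glia, vessels, resident macrophages and blood. tRNA fragments (tRFs) are cut from transfer RNAs, and the long fragments that start at the 5′ end, called 5′-halves, are known to accumulate under stress.

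The mature sequences of the miRNAs on which the comparison turns are given first, as RefSeq lists them on the mouse assembly GRCm38.p6, with the seed (bases 2 to 8) in capitals. They are the 1 miRNA that passed the test, the inflammation-linked miR-146 pair and miR-155, and the miRNAs with the next smallest p-values in each direction.
miR-21a-5p: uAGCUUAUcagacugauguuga
miR-146a-5p: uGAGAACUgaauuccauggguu
miR-146b-5p: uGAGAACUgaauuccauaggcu
miR-155-5p: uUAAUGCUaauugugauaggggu
miR-223-5p: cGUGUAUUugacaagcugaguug
miR-1306-5p: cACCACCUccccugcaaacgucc
miR-3061-5p: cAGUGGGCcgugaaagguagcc
The pair miR-146a-5p and miR-146b-5p share the seed GAGAACU, and no other 2 of these share one. On that assembly and with GENCODE gene models, miR-21a-5p lies at chr11:86584120-86584141 on the minus strand, in an exon of Vmp1 annotated as untranslated region. MiR-146a-5p lies at chr11:43374435-43374456 on the minus strand and overlaps no other gene, and miR-146b-5p at chr19:46342790-46342811 on the plus strand in an intron of Mfsd13a. MiR-155-5p lies at chr16:84714143-84714165 in an exon of its host transcript Mir155hg, and miR-1306-5p at chr16:18284288-18284310 in an exon of Dgcr8, which encodes a partner of the enzyme that cuts miRNA precursors. MiR-223-5p lies at chrX:96242842-96242864 in an exon of F630028O10Rik, and miR-3061-5p at chr11:52126759-52126780 in an exon annotated as untranslated region of Ppp2ca, a phosphatase subunit, where long noncoding RNAs are annotated on the other strand.

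The 8 libraries held 2198180 to 4285103 miRNA counts and 74471 to 394929 tRF counts. Levels are given as CPM, counts relative to the size of the library, after scaling by trimmed mean of M-values (TMM). The sensory neuron marker miR-183-5p stood at 38910 to 42400 CPM at 4 h and at 35250 to 42550 CPM at 24 h, so the labelled sensory ganglion holds its defining miRNA. Libraries of 1 group differed in markers of other tissues. The sum of the miR-200 family, which marks epithelium, was 21.2 CPM in 4 h replicate 4 and 24.1 CPM in 24 h replicate 2, against 425.6 to 1998 CPM in the other 6 libraries. MiR-375-3p and miR-7a-5p, abundant in pituitary and other endocrine cells, reached 4260 and 25290 CPM in 24 h replicate 3. The muscle miRNAs miR-1a-3p and miR-206-3p reached 12340 and 99.4 CPM in 24 h replicate 4. Over miRNAs, log2 levels of replicates correlated at 0.969 to 0.991 in the 12 pairs within groups, a description over miRNAs that share a library. No 2 of the 8 libraries had miRNA counts that matched within sampling noise. Chi-square per degree of freedom was at least 49.5 within groups, and the lowest between the times was 45.9, for replicate 1 of each time.

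**Figure D1:**
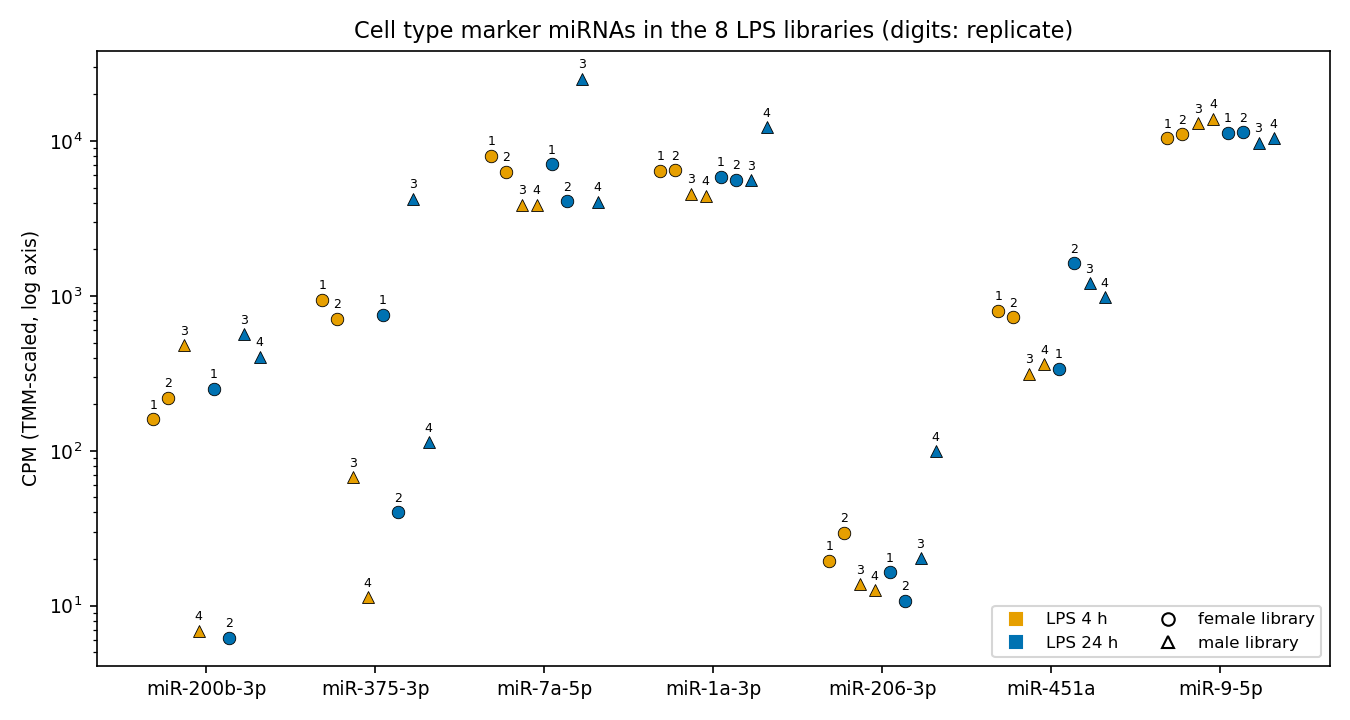
Marker miRNAs in each of the 8 LPS libraries, in CPM on a log axis. Orange is 4 h and blue 24 h, circles are female and triangles male libraries, and digits give the replicate. MiR-200b-3p is near 7 CPM in 4 h replicate 4 and near 6 CPM in 24 h replicate 2, and miR-375-3p and miR-7a-5p are highest in 24 h replicate 3.

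From 4 h to 24 h after LPS, miR-21a-5p rose and no other miRNA passed the test. It stood at 6353, 7764, 5662 and 5681 CPM in the 4 libraries at 4 h and at 13723, 8719, 11760 and 17684 CPM at 24 h. Every library at 24 h lay above every library at 4 h, and the lowest at 24 h was replicate 2, the library spelled PS and low in miR-200. The means were 6365 ± 986 CPM and 12972 ± 3756 CPM (SD, n = 4 each), a 2.04-fold difference (log2 1.03 ± 0.17 SE, adjusted p = 0.00316 by edgeR's quasi-likelihood test with Benjamini-Hochberg adjustment). It was the 1 called of 538 miRNAs tested (0.186%). At unadjusted p under 0.05 there were 34, of which 20 were higher and 14 lower at 24 h, and the median log2 difference of all 538 was 0.01. In bulk tissue, more cells that hold a miRNA and more of it per cell cannot be told apart.

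The call of miR-21a-5p was kept when each of the 8 libraries was left out in turn (log2 0.83 to 1.22, adjusted p at most 0.0432) and in DESeq2 (adjusted p = 4.87e-06). It rests on an estimate of the spread shared over the 24 TG libraries: with the 8 libraries fitted alone the log2 difference was 1.02 and the adjusted p 0.499. Saline libraries lay between 4513 and 5606 CPM at 4 h and between 4783 and 5886 CPM at 24 h, with a log2 difference of 0.09 ± 0.17. All 4 LPS libraries at 24 h and 2 of 4 at 4 h were above all 8 saline libraries. The other arm of the hairpin, miR-21a-3p, had 19 counts in all at 4 h and 21 at 24 h and was too sparse to test.

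The miR-146 pair, which targets adaptors of the TLR4 pathway, was higher at 24 h but did not pass. MiR-146a-5p stood at 1627, 1677, 1168 and 1368 CPM at 4 h and at 2485, 2372, 2000.5 and 2860 CPM at 24 h. No library of the one time overlapped with the other, and the means of 1460 ± 237 CPM and 2430 ± 354 CPM (SD, n = 4 each) gave a log2 difference of 0.73 ± 0.20 (1.66-fold, adjusted p = 0.219). With the 7 d libraries left out of the fit miR-146a-5p was called beside miR-21a-5p (adjusted p = 0.00729). It was also called with all 24 libraries and no filter on low counts (adjusted p = 2.97e-08). That unfiltered fit called 16 miRNAs, first among them miR-375-3p, which 24 h replicate 3 carried. Saline libraries showed a log2 difference of −0.06 ± 0.19 for miR-146a-5p, and all 4 LPS libraries at 24 h were above all 8 saline libraries.

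MiR-146b-5p, with the same seed from another chromosome, stood at 2490, 3350, 2799 and 2755 CPM at 4 h and at 3999, 2992, 3482 and 4052 CPM at 24 h. Here 3 of 4 libraries at 24 h were above all of 4 h, and replicate 2 was not. The log2 difference was 0.35 ± 0.13 (adjusted p = 0.615), smaller than for miR-146a-5p, a contrast between the 2 that was not tested.

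MiR-155-5p, made from the Mir155hg transcript of activated myeloid and lymphoid cells, did not separate the times. Its levels were 35.4, 30.1, 9.94 and 12.6 CPM at 4 h and 36.9, 25.4, 21.5 and 48.8 CPM at 24 h. The libraries overlapped, and at 4 h the 2 female libraries were high and the 2 male ones low. The log2 difference was 0.61 ± 0.35 (95% interval −0.11 to 1.34, adjusted p = 0.816). At 4 h its log2 difference from saline was 1.5 ± 0.38 (adjusted p = 0.123), and 3 of 4 LPS libraries exceeded all 8 saline libraries, which lay between 5.27 and 10.5 CPM. At 24 h it was 1.93 ± 0.36 (adjusted p = 0.00819). The log2 differences of miR-21a-5p and miR-146a-5p from saline were 0.34 ± 0.17 and 0.04 ± 0.19 at 4 h and 1.28 ± 0.17 and 0.83 ± 0.20 at 24 h. The 3 miRNAs were not tested against each other.

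In female libraries the log2 difference of miR-155-5p from 4 h to 24 h was −0.07 ± 0.33 and in male ones 1.64 ± 0.35 (n = 2 per sex and time). The test of the difference between sexes gave −1.71 ± 0.48 (adjusted p = 0.249), and over 538 miRNAs 0 passed (0%), with 39 at unadjusted p under 0.05 and 0 called by DESeq2. Without 24 h replicate 3, which had the lowest level at 24 h, the difference for miR-155-5p was −2.23. Replicate 4 was then the only male library at 24 h. For miR-21a-5p the female and male log2 differences were 0.67 ± 0.20 and 1.38 ± 0.20, and the difference between sexes did not pass (−0.71 ± 0.28, adjusted p = 0.634).

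**Figure D2:**
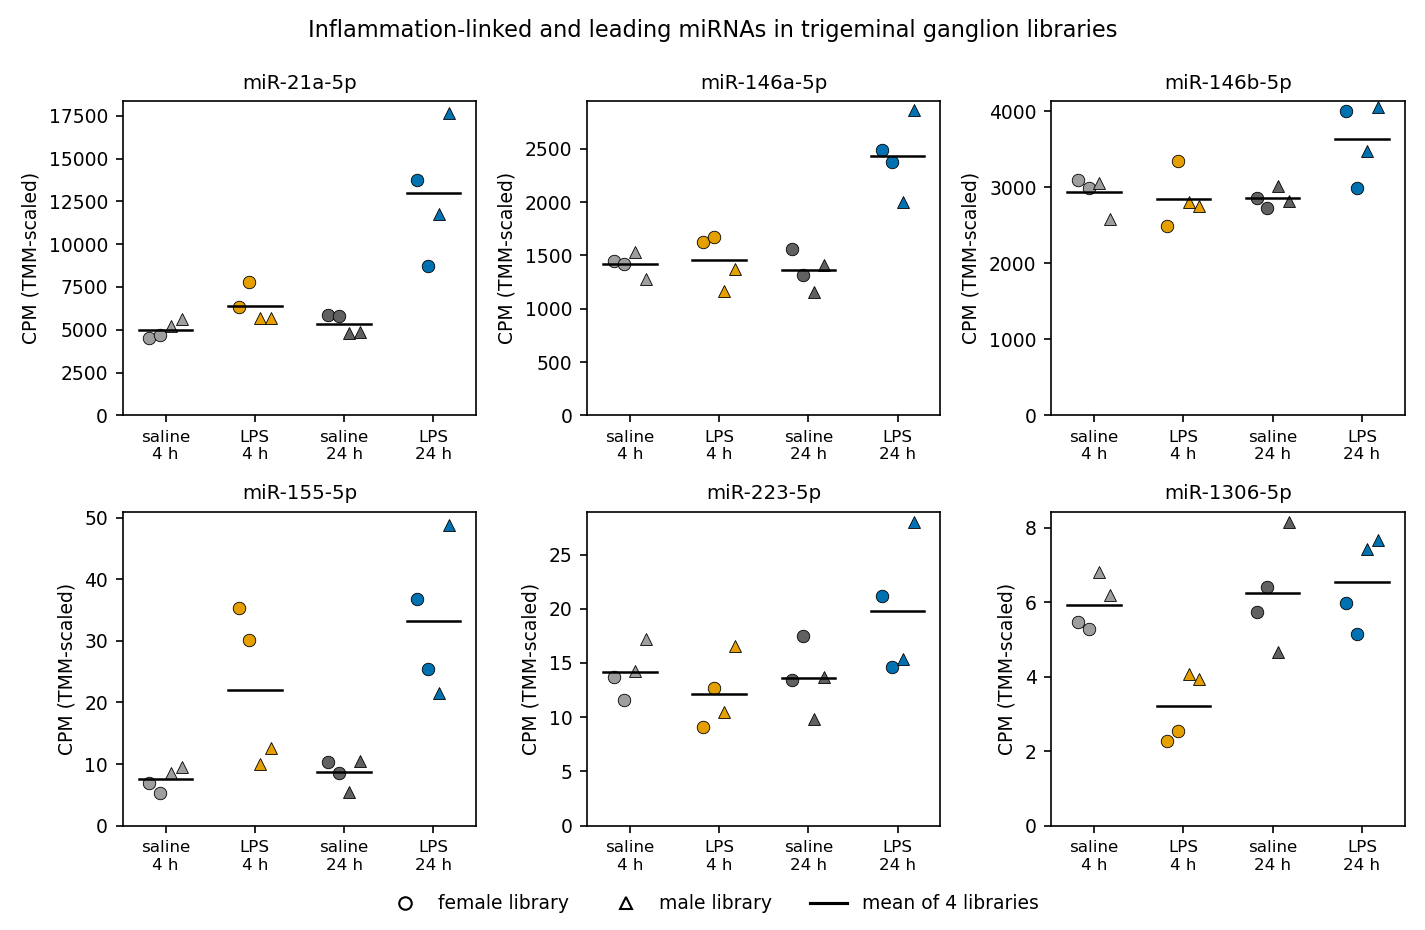
Levels of 6 miRNAs in TG libraries of saline and LPS mice at 4 h and 24 h, in CPM on linear axes from 0. Circles are female and triangles male libraries, and bars are means of 4 libraries. For miR-21a-5p and miR-146a-5p the LPS libraries at 24 h lie above all others, for miR-155-5p the female LPS libraries are already high at 4 h, and for miR-1306-5p the LPS libraries at 4 h lie below all others.

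MiR-1306-5p, encoded in Dgcr8, had the second smallest p. It stood at 2.27, 2.53, 4.08 and 3.95 CPM at 4 h and at 5.98, 5.14, 7.42 and 7.66 CPM at 24 h. At such levels, and at those of miR-3061-5p and let-7f-2-3p below, a library holds few counts. All 4 libraries at 24 h were above those of 4 h, but they lay within the range of saline, whose 8 libraries spanned 4.66 to 8.14 CPM. The libraries at 4 h lay below all 8 saline libraries. The log2 difference from 4 h to 24 h was 1.01 ± 0.23 (adjusted p = 0.0725), and LPS against saline gave −0.87 ± 0.23 at 4 h and 0.07 ± 0.21 at 24 h. In none of the alternatives run did it pass.

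MiR-3061-5p had the smallest p among miRNAs lower at 24 h. Its levels were 5.44, 7.33, 5.10 and 5.68 CPM at 4 h and 2.49, 3.24, 1.197 and 4.31 CPM at 24 h, without overlap. The log2 difference was −1.07 ± 0.32 (adjusted p = 0.441), and in saline it was 0.17 ± 0.30. MiR-223-5p, an arm of a miRNA of neutrophils and monocytes, went from 12.2 ± 3.26 CPM to 19.8 ± 6.23 CPM (log2 0.69 ± 0.23, adjusted p = 0.615), with 2 of 4 libraries at 24 h above all of 4 h. The other arm, miR-223-3p, was at 6.73 and 8.02 CPM (log2 0.23 ± 0.26).

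The remaining 5 of the 10 smallest p-values had an adjusted p of 0.615 each. MiR-99b-3p was at 140.5 and 118.2 CPM without overlap (log2 −0.25 ± 0.09). Both let-7f-2-3p (1.23 and 2.79 CPM, log2 1.13 ± 0.41) and miR-664-3p (14.4 and 20.3 CPM, log2 0.49 ± 0.18) were higher at 24 h without overlap. MiR-6538 had a log2 difference of 2.28 ± 0.83 that 1 library carried: 24 h replicate 1 held 82.9 CPM and the other 3 held 1.89 to 5.03 CPM, and without that library the log2 difference was 0.14. MiR-146b-5p completes the 10.

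**Figure D3:**
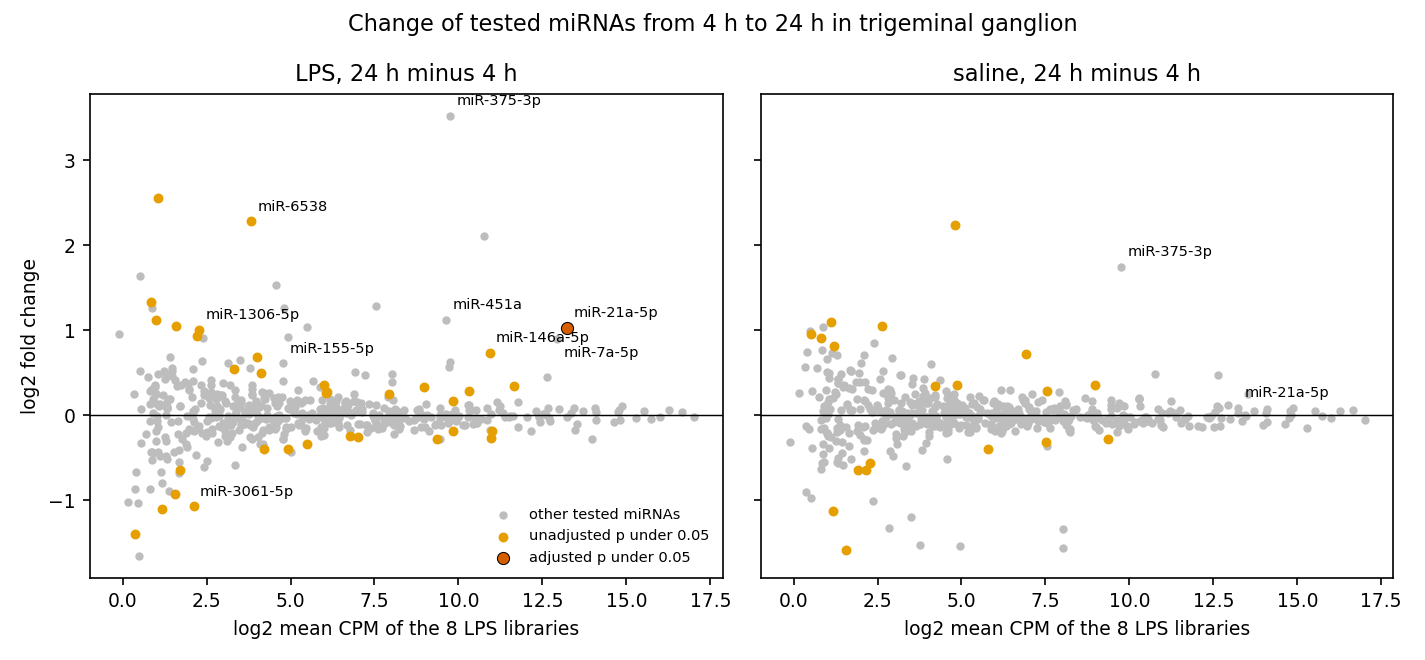
Log2 difference from 4 h to 24 h of 538 miRNAs against their mean level in the 8 LPS libraries (log2 CPM), for LPS libraries on the left and saline libraries on the right. Orange points have an unadjusted p under 0.05, and the outlined point is miR-21a-5p, called in LPS libraries at log2 1.03 and at 0.09 in saline. MiR-375-3p is the highest point of the left panel and is carried by 24 h replicate 3.

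Libraries of the times did not overlap for 14 miRNAs that were higher at 24 h (2.6%) and for 11 that were lower (2.04%). In saline libraries these counts were 9 (1.67%) and 4 (0.743%). The test for saline called 0 of 538 (0%, 19 at unadjusted p under 0.05, and 0 by DESeq2). The test of whether the change with time differed between LPS and saline also called 0 (0%, 16 at unadjusted p under 0.05, and 0 by DESeq2). For miR-21a-5p that difference was 0.94 ± 0.24 with an adjusted p of 0.418. Without 24 h LPS replicate 2 it was 1.16 with an adjusted p of 0.00809, the 1 fit of 16 with a library left out in which it passed, and it passed too with no filter on low counts. For miR-146a-5p the difference was 0.79 ± 0.27 (adjusted p = 1.00), and with no filter on low counts it passed as well (0.77, adjusted p = 0.000183). For the change in LPS libraries the unfiltered fit also called miR-375-3p, which 24 h replicate 3 carried.

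The list of NF-kB and LPS-induced miRNAs had 9 of 15 members tested. Of these 1 was called (miR-21a-5p), 3 were higher at unadjusted p under 0.05 (with miR-146a-5p and miR-146b-5p) and 0 lower. The median log2 difference was 0.25, against 0.01 over all miRNAs and 0.09 for the same list in saline. MiR-222-3p, which targets a cell cycle inhibitor, stood at 219.4, 220.7, 199.8 and 210.8 CPM at 4 h and at 236.5, 213.3, 207.8 and 249.7 CPM at 24 h. These libraries overlapped, and the log2 difference was 0.09 ± 0.20. Libraries of the times did not overlap for 3 of the 9, miR-21a-5p, miR-146a-5p and miR-221-3p, the last named after its values were seen to complete the count. All 3 were higher at 24 h, beside 14 of all 538 miRNAs (2.6%). The list was chosen with earlier results of these data known, so this count is no test of it. The leukocyte list (9 of 10 tested) had a median of 0.23, with 0 called and 1 higher at unadjusted p under 0.05, miR-223-5p. The median of this list was 0.11 without 24 h replicate 4, 0.12 without 4 h replicate 1 and 0.42 without 4 h replicate 2. Its summed level was 423.8 to 539 CPM at 4 h and 478.1 to 627.4 CPM at 24 h. The general leukocyte miRNA miR-142a-3p stood at 43.5, 55.9, 33.9 and 42.2 CPM and at 37.3, 62.2, 58.9 and 71.6 CPM (log2 0.41 ± 0.29), so the groups overlapped.

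All 7 erythroid miRNAs had a positive log2 difference, with a median of 0.63 (−0.04 in saline) and 0 called. Over all miRNAs tested, 282 of 538 had a positive one. MiR-451a, the most abundant of red cells, stood at 804.5, 727.4, 314.3 and 362.4 CPM at 4 h and at 339.6, 1633, 1205 and 979.5 CPM at 24 h. The groups overlapped through 24 h replicate 1, and the log2 difference was 1.12 ± 0.58 (adjusted p = 0.816). MiR-486b-3p was the 1 erythroid miRNA at unadjusted p under 0.05 (log2 0.54 ± 0.21). Without 24 h replicate 1 all 7 were. Summed levels in saline libraries ran from 2629 to 3981 CPM at 4 h and from 1830 to 8262 CPM at 24 h, and in LPS libraries from 1529 to 2811 CPM and from 1555 to 4209 CPM. The part of blood in the differences of leukocyte and erythroid miRNAs was not tested.

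Lists that mark tissue around the ganglion followed single libraries. The epithelium and pituitary list had a median of 0.50 over 8 tested members and 0 called, with summed levels of 138.2 to 1430 CPM at 4 h and 147.6 to 6326 CPM at 24 h. Without 24 h replicate 3 its median was 0.01. The muscle list had a median of 0.48 over 6 members and of −0.02 without 24 h replicate 4. In saline libraries the median of the muscle list was 0.79, above that after LPS, and that of the epithelium and pituitary list was −0.44. The list of miR-132 and miR-212, which neurons induce with activity, had a median of 0.28 over 4 members and of −0.24 without 24 h replicate 3. MiR-132-3p was at 17.8 to 26.7 CPM at 4 h and at 22.9, 17.03, 64.6 and 20.8 CPM at 24 h, and that replicate also held the highest miR-375-3p.

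No neuronal miRNA passed the test. The neuron list (23 of 24 tested) had a median log2 difference of −0.02, with 1 higher and 2 lower at unadjusted p under 0.05, and ran from −1.03 to 2.11. Its highest members were miR-7b-5p and miR-7a-5p (log2 2.11 ± 1.24 and 0.90 ± 0.65), and 24 h replicate 3 alone held 25290 CPM of the latter; these names were chosen after their values were seen. Those lower were miR-129-5p, at 2195.5 and 1824 CPM without overlap (log2 −0.27 ± 0.12), and miR-138-5p (log2 −0.19 ± 0.08), and the 1 higher was miR-138-2-3p from 1 of the miR-138 precursors (log2 0.27 ± 0.11, without overlap). MiR-124-3p had a log2 difference of −0.21 ± 0.19, miR-9-5p of −0.18 ± 0.12 and miR-128-3p of −0.28 ± 0.17. These standard errors draw on the 7 d libraries, where saline replicates differed. MiR-9-5p was at 12870 CPM in saline 7 d replicate 3 and at 19910 to 21340 CPM in the others. MiR-124-3p was at 249.8 CPM and at 585.2 to 605.9 CPM. Without the 7 d libraries the log2 differences were −0.22 ± 0.112, −0.189 ± 0.0782 and −0.295 ± 0.117. None passed edgeR's test (adjusted p 0.574 to 0.672). In the miR-183 cluster of sensory neurons the log2 differences were −0.03 ± 0.11 for miR-183-5p, −0.07 ± 0.10 for miR-182-5p and −0.02 ± 0.11 for miR-96-5p. Their 95% intervals, −0.26 to 0.21, −0.28 to 0.13 and −0.24 to 0.20, all lie within a 1.5-fold change.

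Over all miRNAs tested, 256 of 538 were lower at 24 h. The Dlk1-Dio3 cluster is an imprinted locus on chromosome 12 whose many miRNAs are expressed in neurons. It had 40 of 46 tested members lower at 24 h by small amounts (median −0.07, and −0.05 in saline). Of these 3 were lower at unadjusted p under 0.05, miR-496a-3p (log2 −0.40 ± 0.16), miR-410-3p (−0.24 ± 0.11) and miR-485-5p (−0.28 ± 0.13), and 2 were higher, miR-665-3p (1.05 ± 0.41) and miR-376a-3p (0.93 ± 0.41). Without 4 h replicate 1 the lower members were 26 of 47, and without 24 h replicate 4 also 26 of 47. At 24 h, miR-376a-3p was at 10.5 CPM in replicate 3 against 4.33 to 4.55 CPM in the others. MiR-410-3p was at 77.6 CPM in 24 h replicate 4 against 106.1 to 110.0 CPM. With 1 library left out their log2 differences ran from 0.445 to 1.14 and from −0.292 to −0.14. Members of the miR-17-92 and paralog clusters, which go with proliferation, had a median of 0.19 over 13, with miR-92a-3p (0.25 ± 0.10), miR-25-3p (0.29 ± 0.12) and miR-20a-5p (0.27 ± 0.11) higher at unadjusted p under 0.05. Without 4 h replicate 4 none of the 13 was at that level.

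The medians of the glia (8 members), mesenchyme and smooth muscle (10), let-7 (9), liver and gut (4) and endothelium (2) lists lay between −0.02 and 0.02. The sign of the let-7, endothelium, and liver and gut medians turned with another scaling of library sizes. The mesenchyme median depended on single libraries, at −0.42 with 10 of 10 members lower without 24 h replicate 4 and at 0.30 with 9 of 10 higher without 4 h replicate 2. With 1 library left out the glia median ran from −0.05 to 0.09, and those of let-7, liver and gut, and endothelium also took either sign. MiR-126a-3p of endothelium had a log2 difference of 0.03 ± 0.13. The Hox cluster list (4) had a median of −0.08 and the p53-linked list (3) of −0.11, with miR-34a-5p at −0.03 ± 0.12. MiR-210-3p, induced by hypoxia and the 1 tested member of its list, had a log2 difference of 0.09 ± 0.14. Over all 538 miRNAs, 408 (75.8%) had a 95% interval that lay within a 2-fold change either way. Among the 183 with at least 100 CPM it was 168, and 152 lay within 1.5-fold.

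**Figure D4:**
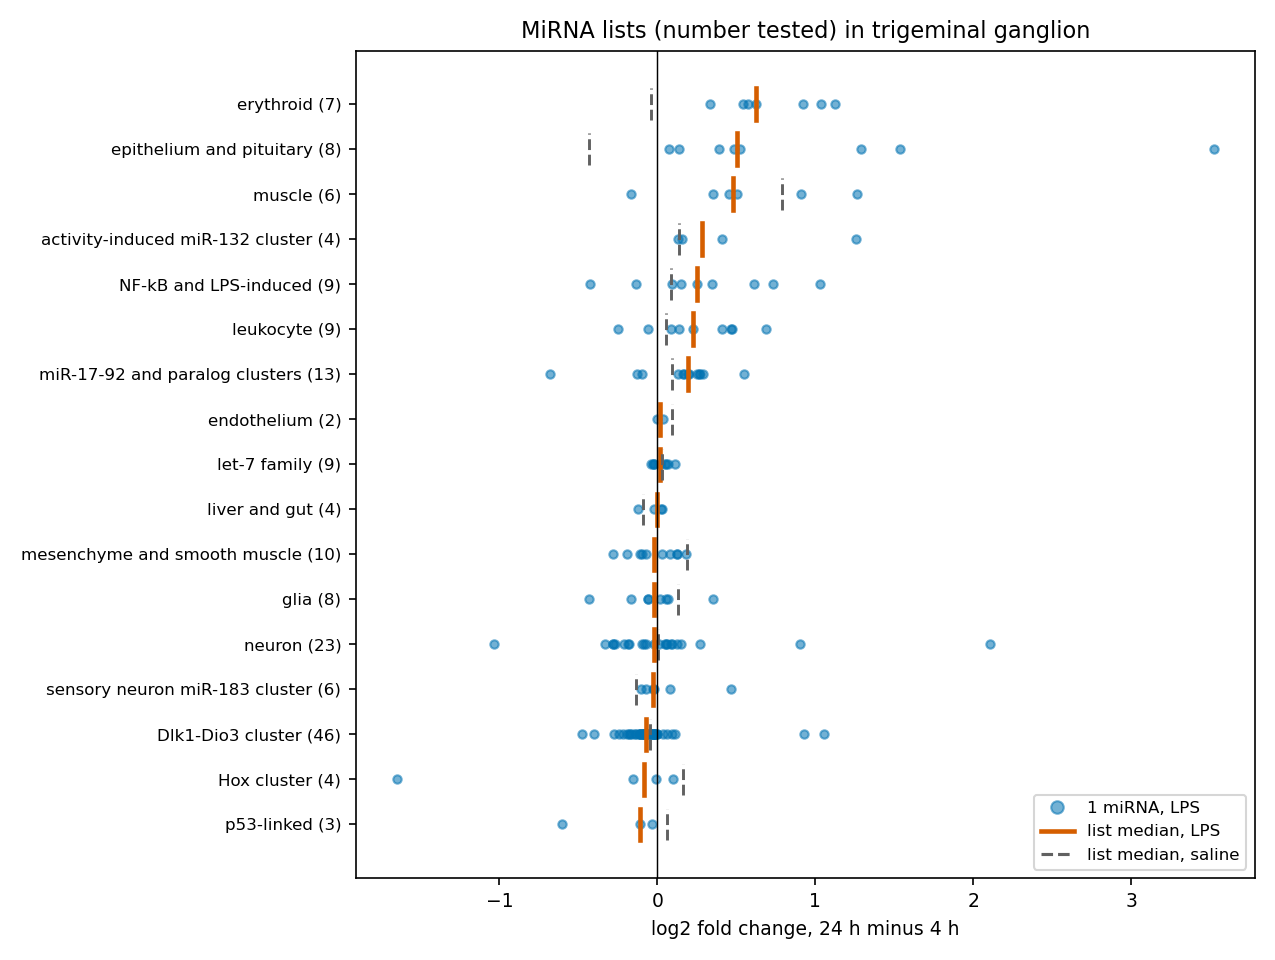
Log2 differences from 4 h to 24 h of the tested members of each miRNA list in LPS libraries (points), with the list median in LPS (solid) and saline libraries (dashed). The number tested is in brackets. Erythroid, epithelium and pituitary, and muscle lists have medians of 0.63, 0.50 and 0.48, and the neuron and miR-183 lists of −0.02 and −0.03.

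In the SCG the same interval after LPS gave log2 differences of 1.17 ± 0.24 for miR-21a-5p, 0.73 ± 0.26 for miR-146a-5p and 0.75 ± 0.35 for miR-155-5p. The differences between TG and SCG were −0.13 ± 0.33, −0.00 ± 0.36 and −0.13 ± 0.50. Of 577 miRNAs, 0 passed the test of that difference (0%, 35 at unadjusted p under 0.05). DESeq2 called 2, miR-128-2-5p and miR-871-3p, which are named because of that count after their values were seen. LPS means at 7 d in TG were 7926 ± 998 CPM for miR-21a-5p, 3127 ± 868 CPM for miR-146a-5p and 18.02 ± 3.93 CPM for miR-155-5p (SD, n = 4). Compared with 24 h the first and the last were thus lower and miR-146a-5p higher, which was not tested.

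Of the tRFs, the 3 whose libraries did not overlap among the 6 with the smallest p-values are given in the deposited sequence, in lower case. Fragment type and parent tRNA are those of the deposited annotation, which was made on human tRNA genes, so no position is given.
tRF-19-8WI26WIZ: tccgtatggaggcgtgggt
tRF-38-U1O0789NLJK1JK8: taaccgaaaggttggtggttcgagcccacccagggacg
tRF-18-S3M83004: gtagtcgtggccgagtgg

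No tRF passed the test from 4 h to 24 h. Of 559 tested, 0 were called (0%, smallest adjusted p 0.695), 10 were higher and 19 lower at unadjusted p under 0.05, and DESeq2 also called 0. The 10 most abundant tRFs held 71.97% to 82.45% of the tRF counts of a library.

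An internal fragment of a leucine tRNA, tRF-19-8WI26WIZ, had the smallest p. It stood at 116, 45.2, 69.98 and 142 CPM at 4 h and at 31.96, 30.01, 38.8 and 14.99 CPM at 24 h, without overlap (log2 −1.65 ± 0.49, adjusted p = 0.695). In saline libraries its log2 difference was 0.44. The asparagine fragment tRF-38-U1O0789NLJK1JK8 (322 ± 106 and 179 ± 22.5 CPM, SD, n = 4 each, log2 −0.82 ± 0.26) and the 5′ fragment of serine tRNA tRF-18-S3M83004 (log2 −0.78 ± 0.31) were lower without overlap too. Saline libraries also had negative log2 differences for both, −0.19 ± 0.26 for the asparagine and −0.40 ± 0.30 for the serine fragment. Of the other 3 among the 6 smallest p-values, tRF-21-WB8647O5D (log2 2.70 ± 0.87) and tRF-16-3VLIE1B (1.79 ± 0.70) are 3′ fragments and were higher, at 0 CPM in 1 and 2 libraries of 4 h, and tRF-34-94U47P299DWUFJ was lower (−1.81 ± 0.63). Libraries did not overlap for 9 tRFs higher at 24 h (1.61%) and 12 lower (2.15%), and in saline for 4 (0.716%) and 7 (1.25%).

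By fragment type, internal fragments (i-tRFs) had a negative median log2 difference and the other types a positive one. The sign of 2 types turned with 1 library: 5′-tRFs had a median of 0.16, but −0.24 without 24 h replicate 1, and 3′-halves had 0.05, but −0.14 without 24 h replicate 2. Of 207 i-tRFs tested 149 had a negative log2 difference, beside 279 of all 559 tRFs. Among the 207, 15 were lower and 0 higher at unadjusted p under 0.05. The median of i-tRFs was −0.29, beside 0.00 over all 559. The 91 5′-halves had a median of 0.27, with 1 higher and 0 lower at that level, and of 0.13 without 24 h replicate 1 and 0.45 without 24 h replicate 3. In saline libraries the medians were −0.17 and 0.25, and the LPS-specific difference called 0 of 559 (0%, 15 at unadjusted p under 0.05, and 0 by DESeq2). When tRF counts were scaled by the miRNA library sizes, the median of all tRFs moved to 0.22 and that of i-tRFs to −0.07, which is −0.29 relative to it, with 117 of 207 lower and only 3 lower and 1 higher at unadjusted p under 0.05. The 15 became 5 without 4 h replicate 1 and also 5 without 24 h replicate 1, and with any 1 of the 8 libraries left out it was 5 to 17. Medians of i-tRFs stayed negative with each of the 8 libraries left out (−0.37 to −0.17). Of 10 i-tRFs of methionine tRNA 10 were lower (median −0.52, beside −0.17 in saline, with 0 at unadjusted p under 0.05). Of 33 of leucine tRNA 27 were lower (median −0.50, beside −0.42 in saline, with 6 at unadjusted p under 0.05). With miRNA scaling 8 and 24 were lower. The 6 of leucine tRNA became 2 with miRNA scaling and 1 without 4 h replicate 1, and were 1 to 5 with any 1 library left out. Other parent tRNAs differed, with 37 of 51 i-tRFs lower for glutamate and 15 of 21 for glycine. For lysine 15 of 32 were lower and 17 higher (median 0.07), and for histidine 2 of 5 were lower. Fragments of 1 tRNA overlap in sequence and are not independent.

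Shares of the tRF counts by fragment type did not pass the test either. The share of 5′-halves was 71.2%, 80.1%, 71.8% and 70.8% at 4 h and 79.7%, 81.8%, 77.1% and 78.0% at 24 h. The groups overlapped through 4 h replicate 2, and the means were 73.5 ± 4.44% and 79.1 ± 2.08% (SD, n = 4 each; two-sided exact permutation test p = 0.114, adjusted over 5 fragment types p = 0.238). The share of i-tRFs was 4.58 ± 1.47% and 3.17 ± 0.92% (exact permutation test, adjusted p = 0.238). That of 5′-tRFs, the other fragments from the 5′ end, was 16.45 ± 2.44% and 12.98 ± 2.62% (exact permutation test, adjusted p = 0.238). With 4 against 4 libraries the smallest p this test can give is 0.0286. In saline libraries the share of 5′-halves was 72.4 ± 5.83% and 75.3 ± 4.27%. There were 4.11 ± 1.10 tRF counts per 100 miRNA counts at 4 h and 6.06 ± 2.58 at 24 h (exact permutation test p = 0.229), with 9.54 in 24 h replicate 1 and 3.325 to 5.84 in the other 3. In saline libraries this ratio was 3.67 ± 1.84 at 4 h and 4.93 ± 2.955 at 24 h. In the SCG comparison, 0 of 729 tRFs passed the test of the difference from TG (0%, 59 at unadjusted p under 0.05, and 0 by DESeq2). Of 559 tRFs 121 (21.6%) had a 95% interval within a 2-fold change.

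**Figure D5:**
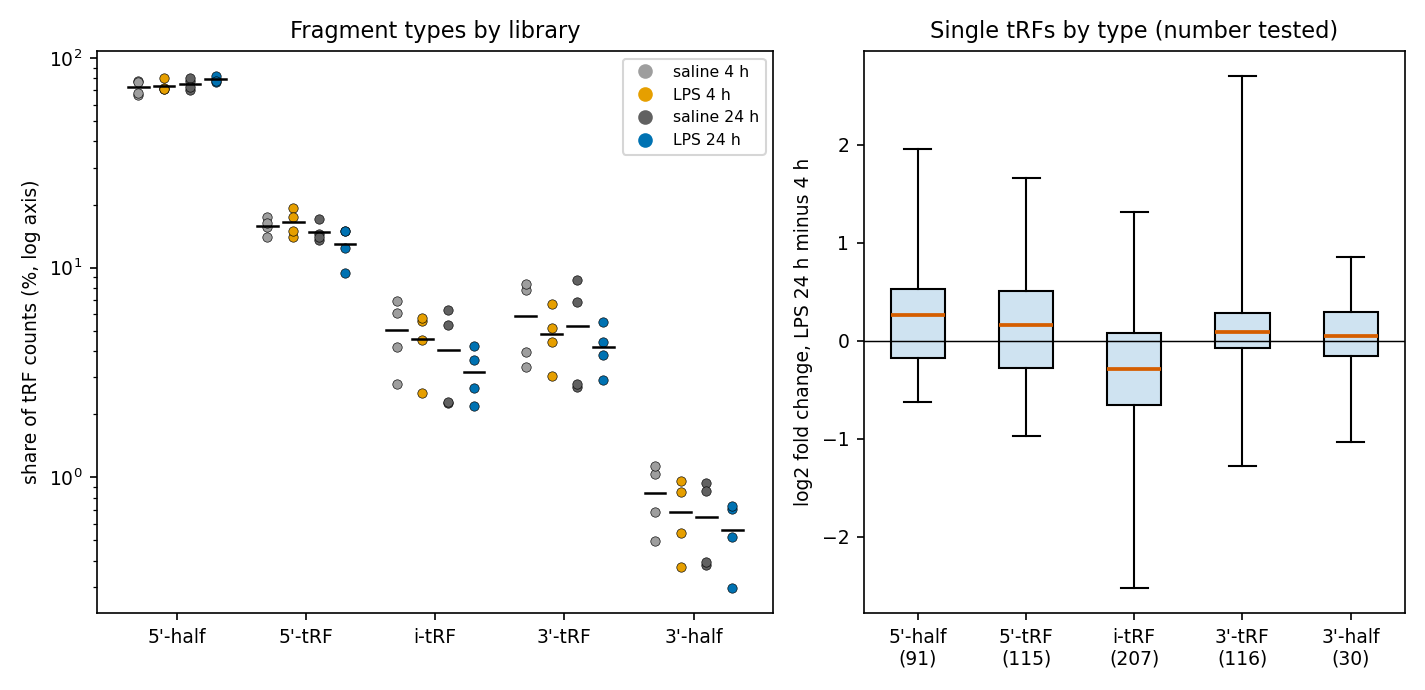
Left, share of tRF counts by fragment type in each TG library (percent, log axis; bars are means of 4). Right, log2 differences from 4 h to 24 h after LPS of the tested tRFs by type, with the median, quartiles and full range. I-tRFs have a median of −0.29 (−0.07 when scaled by miRNA library sizes) and 5′-halves of 0.27.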

How the data were processed

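Small RNA libraries made from total RNA were sequenced and the authors deposited whole-number counts per miRNA and per tRF for each library, with tRF type and parent tRNA in separate annotation columns. FastQC 0.11.9 and the genome build GRCm39 are named per the submitters' processing notes, while the aligner and counter were not given in the sources used here. Counts were fitted with edgeR 4.0.16 (quasi-likelihood F-test, robust, TMM scaling, limma 3.58.1, R 4.3.3) over 24 TG libraries in 6 groups with a term for sex, after a filter for a minimum count of 10 by group. Within a comparison the Benjamini-Hochberg adjustment was applied over all features tested, with calls made under 0.05. The p-values measure the spread between these mice only. A difference is log2 of 24 h over 4 h with its standard error. The test of TG against SCG was fitted over libraries of both ganglia. Shares were compared by a two-sided exact permutation test (scipy 1.17.1, 70 assignments). Scripts were tested on simulated data. Alternatives were DESeq2 1.42.0, other scalings and filters, no sex term, fewer libraries in the fit, each library left out in turn and, chosen after seeing the data, leaving out both libraries low in miR-200.

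The members and lists were chosen with earlier results of these data known. The text names called miRNAs or the 10 with the smallest p, list members at unadjusted p under 0.05 and a core set (39 miRNAs), and the 6 tRFs with the smallest p. The 3 most abundant tRFs, which the rule also takes, are not reported here. RefSeq held 39 of the 42 miRNA sequences sought. Depth was 2198180 to 4285103 miRNA counts and 74471 to 394929 tRF counts per library.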

Additional observations from a re-analysis of the deposited data

Results flagged for a closer look

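Of 124 groups of 4 libraries checked for 1 library far from the other 3, 10 stood out, and chance gives about 1 in 20. The share of 5′-halves was 80.1% in 4 h replicate 2 and 70.8% to 71.8% in the other 3. In 24 h replicate 1, miR-6538 was at 82.9 CPM against 1.89 to 5.03 CPM. In 24 h replicate 3, miR-375-3p was at 4260 CPM against 40.01 to 757.7 CPM, miR-7a-5p at 25290 CPM against 4072 to 7066 CPM, and miR-141-3p at 101.2 CPM against 1.62 to 17.96 CPM. The same library held miR-132-3p at 64.6 CPM against 17.03 to 22.9 CPM and miR-376a-3p at 10.5 CPM against 4.33 to 4.55 CPM. In 24 h replicate 4, miR-1a-3p was at 12340 CPM against 5574 to 5890 CPM, miR-206-3p at 99.4 CPM against 10.8 to 20.3 CPM, and miR-410-3p, the 1 low value, at 77.6 CPM against 106.1 to 110.0 CPM.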

How the results depend on the processing

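Of 739 refits of 47 named features, 725 kept direction and side of the threshold, 1 lost a call, 4 gained one and 9 changed sign. With no filter on low counts 16 miRNAs were called for LPS, 11 for saline and 18 for the LPS-specific difference. Without that filter 27 were called for TG against SCG and 6 for female against male, and 17 tRFs for TG against SCG. First among the 16 for LPS was miR-375-3p, which 24 h replicate 3 carried. With only the 8 libraries compared 0 were called for LPS (smallest adjusted p 0.144), and with the 16 TG libraries of 4 h and 24 h 2 were. DESeq2 called 2 for TG against SCG. With 1 library left out, 0 to 1 miRNAs were called for the LPS-specific difference. For female against male this left 1 library of a sex at 1 time, so no calls are given. Signs turned for miR-210-3p without both libraries low in miR-200 (log2 −0.0114) and, with 1 library left out, for miR-183-5p (−0.0784 to 0.0205), miR-132-3p (−0.213 to 0.668), miR-212-5p (−0.271 to 0.307), miR-126a-3p (−0.0506 to 0.141) and miR-96-5p (−0.0689 to 0.0457). The cause was not tested. No paired analysis was possible because replicate numbers follow accession order and link no mice between groups. The test of TG against SCG therefore treated libraries of both ganglia as independent and ignored any mouse that gave both. The 95% interval lay within a 2-fold change for 75.8% of miRNAs and 21.6% of tRFs.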

Other observations

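Arms of the same hairpin and neighbours within 10 kb of the leading miRNAs were compared as values, with no test of the contrast between them. MiR-1306-3p was at 4.24 CPM at 4 h and 3.30 CPM at 24 h (log2 −0.37 ± 0.28), beside 1.01 for miR-1306-5p. MiR-3061-3p had a log2 difference of −0.14 ± 0.51 beside −1.07 for its other arm. MiR-99b-5p (log2 −0.08 ± 0.06), let-7e-5p (−0.02 ± 0.08) and miR-125a-5p (0.03 ± 0.08), from the transcript of miR-99b-3p, were near 0. Of their other arms, let-7e-3p was at 0.35 ± 0.18 and miR-125a-3p at −0.01 ± 0.13. MiR-664-5p had a log2 difference of −0.18 ± 0.10 beside 0.49 for miR-664-3p. MiR-155-3p had 9 counts in all at 4 h and 6 at 24 h, and miR-146a-3p 0 and 4.

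Over all tRFs, 280 of 559 had a positive log2 difference, and with miRNA scaling 371 of 559. Among tRF families, 10 of 11 tested 5′-halves of glycine tRNA and 11 of 12 of lysine tRNA had positive log2 differences (medians 0.55 and 0.46). With miRNA scaling these were 10 and 12, with medians of 0.61 and 0.49 relative to all tRFs. In saline libraries the medians of the glycine and lysine families were 0.04 and 0.23. Without 4 h replicate 1 the glycine count was 8 of 11. Of all 91 5′-halves tested, 61 had a positive log2 difference. For other parent tRNAs it was 13 of 20 for glutamate, 9 of 16 for histidine, 2 of 6 for leucine and 0 of 1 for methionine.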
